A study of Mus musculus with 4 samples.

Results

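The genes described here are 10 members of the transforming growth factor beta (TGF-beta) signalling system: the ligand genes Tgfb1, Tgfb2, Tgfb3, Bmp4 and Inhba, the latent TGF-beta binding protein genes Ltbp1 and Ltbp3, and the receptor genes Tgfbr1, Tgfbr2 and Tgfbr3. They were chosen by name, with earlier results of these data known. Every array probe that the platform annotation assigns to one of them was taken, which gave 26 of the 45281 probes and 10 of the 19057 named genes. Of these 26 probes 16 were detected on all 4 arrays, at least 1 for each of the 10 genes, and these 16 were tested.

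The arrays carried RNA of sciatic nerve from mice at postnatal day 60, on a mixed FVB and C57BL/6 background. LKB1-SCKO mutants lack the kinase LKB1 (gene Stk11) in Schwann cells, and controls had the floxed allele but no Cre recombinase. The Cre line is not given in the sources used here. Each genotype had 2 pools, named 1 and 2, and each pool held 3 nerves from 3 different mice, so 6 mice stand behind each genotype. According to the series' title the age precedes axon degeneration, and the comparison asks which nerve transcripts differ at that stage.

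TGF-beta is secreted in a latent form, wrapped in its own propeptide and tied by LTBP proteins to the extracellular matrix, from which integrins and proteases can free it. The active ligand binds the kinase receptor TGFBR2, which recruits and phosphorylates TGFBR1, and TGFBR1 in turn activates SMAD2 and SMAD3. Activins use the same SMAD proteins through their own receptors, while BMPs act mainly through SMAD1 and SMAD5. In peripheral nerve TGF-beta is known for its effects on Schwann cell proliferation, survival and injury responses and on matrix production by fibroblasts.

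All values below are normalised log2 intensities unless another scale is named, and all differences are LKB1-SCKO minus control. The differences were tested with limma, with p-values adjusted by the Benjamini-Hochberg method over all 19732 probes detected in both pools of at least 1 genotype. Values of different probes are not comparable as levels, because each probe binds with its own strength.

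Between 19588 and 20627 probes were detected per array. Across the tested probes, which are not independent replicates, the correlation of log2 values was 0.989 for the pair of control pools, 0.985 for the mutant pair and 0.968 to 0.977 for pairs of unlike genotype. The targeted gene, Stk11, read 9.70 and 9.83 in controls and 8.93 and 9.01 in LKB1-SCKO. It was lower in both mutant pools, by -0.80 (SE 0.143, limma adjusted p = 0.0600), and it passed the threshold with 1 probe per gene (limma adjusted p = 0.0448). The position of its single probe relative to the deletion is not given in the sources used here. The 5 Schwann cell markers named on the platform, Mbp, Pmp22, Mag, Sox10 and S100b, were detected on all 4 arrays. Their summed linear intensity was 125641 and 122292 in controls and 111717 and 117667 in LKB1-SCKO, with Mbp the brightest. None of the 5 passed the threshold, and 3 had differences above 0 and 2 below. Pmp22, named after its value was seen, was lower in both mutant pools, by -0.42 (limma adjusted p = 0.184). In these whole nerves, a change in the number of cells of a type cannot be told apart from a change of RNA per cell.

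Markers of other cells differed between the pools. The summed linear intensity of 8 macrophage markers was 6872 and 9405 in controls and 12421 and 11802 in LKB1-SCKO, with Laptm5 as the brightest. Of the 8 markers 2, Cx3cr1 and Mpeg1, rose (limma adjusted p = 0.0341 and 0.0489), where 2.00% of all genes were called higher. Of the 8, 6 had differences above 0 and 2 below. The latter, Cd163 and Mrc1, stood at -1.25 and -0.48 (limma adjusted p = 0.250 and 0.479). The sum of 4 red blood cell markers, Hbb-bt the brightest, was 43153 and 37210 in controls against 82019 and 150062. The sum of 4 adipocyte markers, Adipoq the brightest, was lowest in control 2, at 2837, against 6914 in control 1 and 8477 and 6128 in the LKB1-SCKO pools. The sum of 7 skeletal muscle markers, Acta1 the brightest, was lowest in LKB1-SCKO 1, at 9812, against 31773 to 41218 in the other pools. The sum of 8 fibroblast markers, Dcn the brightest, was 64352 and 78340 in controls and 66401 and 53671 in LKB1-SCKO. The part of these cell populations in the values below was not tested.

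None of the 16 tested probes passed the threshold in LKB1-SCKO nerves. In limma 0 rose and 0 fell at an adjusted p under 0.05, where 2.52% of all tested probes were called, 1.65% higher and 0.872% lower. At an unadjusted p under 0.05 there were 4 of the 16 (25%), against 20.4% of all tested probes, so this share lay near the background. The pools of the genotypes did not overlap at 10 of the 16 probes (62.5%), against 53.3% of all tested probes. Of these, 7 were higher in LKB1-SCKO and 3 lower, where 26.2% and 27.1% of all tested probes were. The median difference over the 16 probes was 0.18, with 10 above 0, against a median of -0.011 over all tested probes, with 9589 of 19732 above 0. The median size of the difference, regardless of sign, was 0.25 for the members and 0.22 for all tested probes. Probes of 1 gene share their target, so the 16 are not independent.

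**Figure D1:**
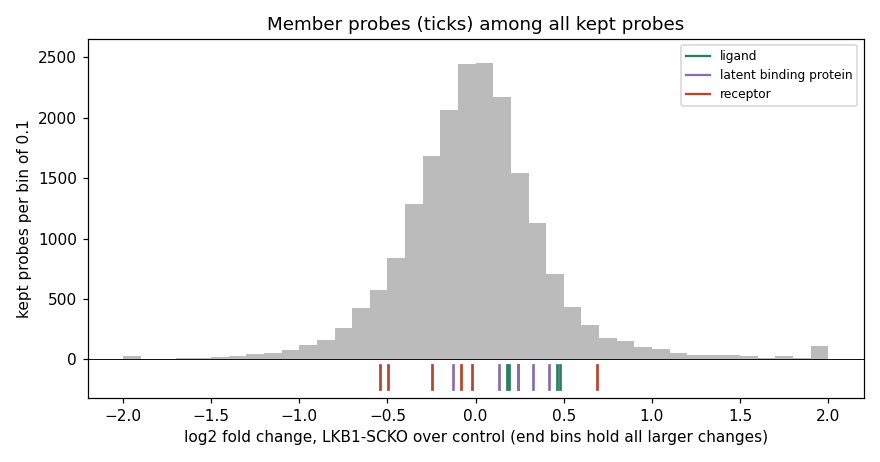
Histogram of log2 fold changes (LKB1-SCKO over control, x axis) of the 19732 tested probes, as probes per bin (y axis), with the 16 member probes as ticks under it, coloured by role. The member ticks span -0.54 to 0.69 and lie within the bulk of the histogram.

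The 5 ligand genes all had differences above 0, from 0.18 to 0.48, and none passed the threshold. Tgfb1 encodes TGF-beta1, an isoform made by many cell types. Its single probe, ILMN_2711461, gave 7.07 and 6.82 in controls and 7.46 and 7.38 in LKB1-SCKO. Both mutant pools thus lay above both control pools. The difference was 0.48 (SE 0.157, 95% interval 0.087 to 0.87), a 1.39-fold higher level (limma adjusted p = 0.183). The unprocessed signals behind it were 261 and 246 in controls and 290.1 and 305 in LKB1-SCKO. Over the alternatives the difference ran from 0.25 without background correction to 0.61 without control 1. The summed macrophage markers given above were also higher in both mutant pools. Among them, named after their values were seen, Cd163 was lower in both mutant pools, and Mrc1, Adgre1 and Csf1r overlapped between the genotypes. The part of macrophages in the Tgfb1 values was not tested.

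Tgfb2 encodes TGF-beta2, the isoform that depends most on the co-receptor TGFBR3. Its probe, ILMN_1225196, gave 5.74 and 5.76 in controls and 6.04 and 6.38 in LKB1-SCKO. The control pools were nearly equal, and the mutant pools were both higher but further apart from each other. The difference of 0.46 (SE 0.169, 95% interval 0.036 to 0.88) did not pass (limma adjusted p = 0.218). It was 0.15 without background correction, 0.30 with an offset of 50 and 0.29 without LKB1-SCKO 2. With the authors' processed values it was 0.24 after they were shifted upward, which shrinks log2 differences of dim probes. Before the shift those values were 37.2 and 37.6 in controls and 48.7 and 65.0 in LKB1-SCKO. Its unprocessed signals, 179 and 184 against 189 and 221, were close to the background, where the array medians were 153 to 167, so small errors in background weigh heavily on its log2 values.

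Tgfb3 encodes the remaining TGF-beta isoform. Its probe, ILMN_2748966, gave 8.59 and 8.44 in controls and 8.68 and 8.82 in LKB1-SCKO. The pools did not overlap, yet the gap between control 1 and LKB1-SCKO 1 was smaller than the distance between the pools of either genotype. The difference was 0.24 (SE 0.148, 95% interval -0.13 to 0.61, limma adjusted p = 0.414), and 0.16 with median scaling.

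Bmp4 encodes a ligand of the BMP branch, which patterns many embryonic tissues. Of its 2 probes, ILMN_1215252 was tested and gave 8.92 and 8.50 in controls and 9.12 and 8.69 in LKB1-SCKO. In each genotype pool 1 was higher than pool 2, and the genotypes overlapped. The difference was 0.19 (SE 0.225, 95% interval -0.37 to 0.75, limma adjusted p = 0.678), and without 1 pool it ran from -0.025 without LKB1-SCKO 1 to 0.40 without LKB1-SCKO 2. With median scaling it was 0.10.

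Inhba encodes the beta A subunit, which forms activin A as a dimer. Its probe, ILMN_2868220, gave 6.40 and 5.18 in controls and 5.77 and 6.16 in LKB1-SCKO. Both mutant values lay between the control values. The control pools differed more from each other here than at any other tested probe of the 10 genes, and the 95% interval of the difference, -0.85 to 1.20, was the widest (0.18, SE 0.410, limma adjusted p = 0.848). The detection p-value in control 2 was 0.0459, just under the limit of 0.05. Without control 1 the difference was 0.79 and without control 2 it was -0.44, and without background correction it was 0.038.

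**Figure D2:**
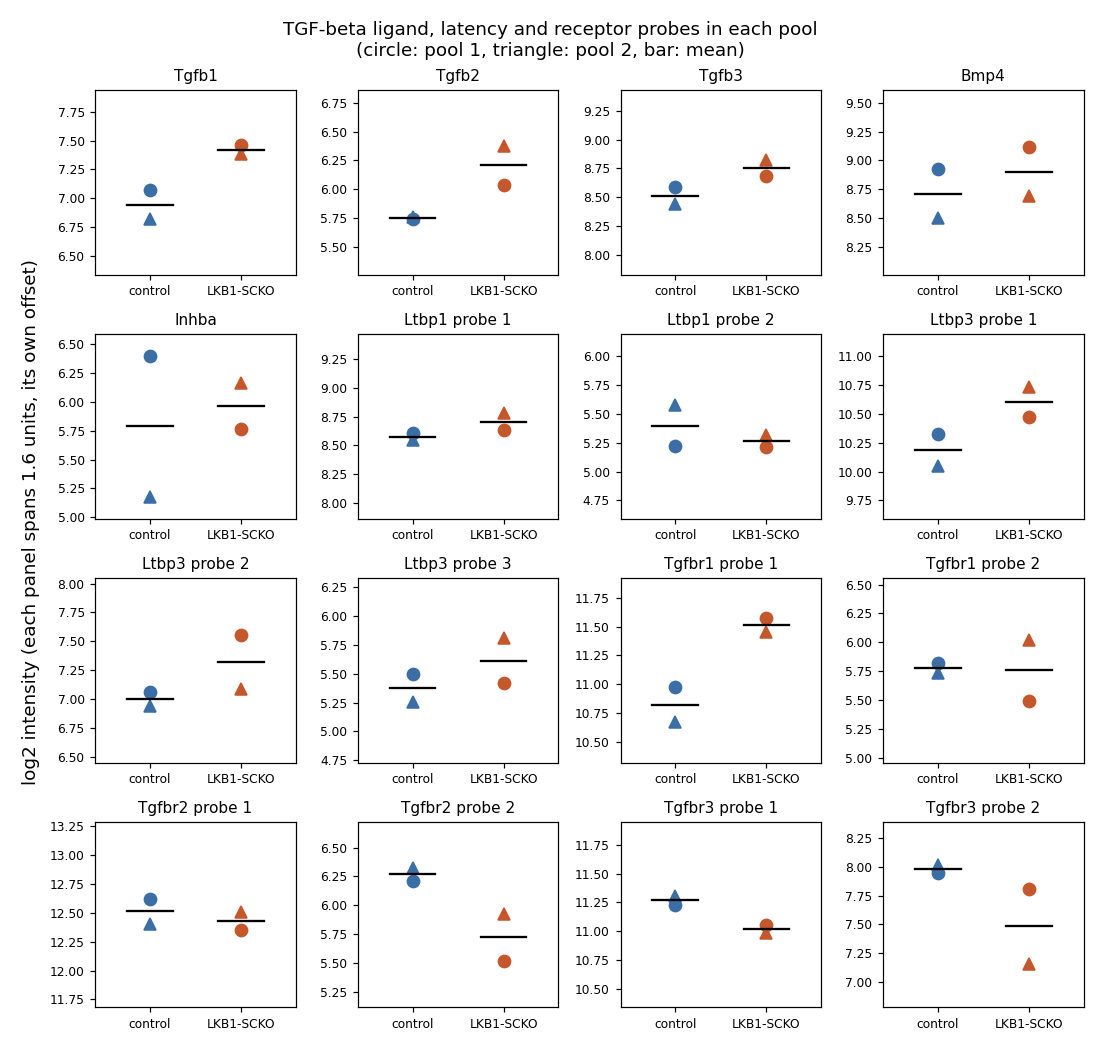
Normalised log2 intensity (y axis) of each of the 16 tested probes in control and LKB1-SCKO pools (x axis), with circles for pool 1, triangles for pool 2 and bars for means. Every panel spans the same range of 1.6 log2 units but has its own offset, and probes of 1 gene are numbered from the brightest. The mutant pools lie above the control pools in 7 panels, below in 3 and overlap in 6.

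Ltbp1 and Ltbp3 encode matrix proteins that bind latent TGF-beta. The platform has 7 probes for Ltbp1, of which 2 were tested. The brighter, ILMN_1221564, gave 8.60 and 8.55 in controls and 8.63 and 8.78 in LKB1-SCKO. The difference of 0.13 (SE 0.143, 95% interval -0.23 to 0.49) did not pass (limma adjusted p = 0.651), and over the alternatives it ran from 0.047 with median scaling to 0.21 without LKB1-SCKO 1. The dimmer, ILMN_2765452, gave 5.22 and 5.57 in controls and 5.21 and 5.32 in LKB1-SCKO, a difference of -0.13 (SE 0.175, limma adjusted p = 0.721). The probes of Ltbp1 thus differed in sign, and both intervals included 0. They are annotated to different Ltbp1 transcript records. The dimmer probe's unprocessed signals of 160 to 177 were close to the background. Its detection p-values in control 1, LKB1-SCKO 1 and LKB1-SCKO 2 were 0.0491, 0.0406 and 0.0417, just under the limit of 0.05. At the dimmer probe the difference ran from -0.31 without control 1 to 0.048 without control 2.

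Ltbp3 had 3 tested probes, all with differences above 0. The brightest, ILMN_2776619, gave 10.33 and 10.05 in controls and 10.48 and 10.73 in LKB1-SCKO, where the pools did not overlap. The difference was 0.41 (SE 0.176, 95% interval -0.028 to 0.86), or 1.33-fold (limma adjusted p = 0.268). The second probe, ILMN_2608746, gave 7.06 and 6.94 against 7.56 and 7.09, a difference of 0.32 (SE 0.200) that rested mostly on LKB1-SCKO 1. Without LKB1-SCKO 1 the difference at this probe was 0.088, and without LKB1-SCKO 2 it was 0.56, while without background correction it was 0.17. The third probe, ILMN_1243018, gave 5.50 and 5.25 against 5.42 and 5.81, overlapping between genotypes, with a difference of 0.24 (SE 0.193) that ran from 0.046 without LKB1-SCKO 2 to 0.43 without LKB1-SCKO 1, and was 0.068 without background correction. None of the 3 passed (limma adjusted p = 0.268, 0.413 and 0.531), and since all of them read the same 4 RNA pools, their common sign counts once.

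Among the receptor genes the tested probes pointed in both directions, with 1 of 6 above 0 and 5 below. Tgfbr1 encodes the type I receptor kinase that phosphorylates SMAD2 and SMAD3. Its brightest probe, ILMN_2602711, had the largest difference of the 16. It gave 10.98 and 10.67 in controls and 11.57 and 11.45 in LKB1-SCKO, so that both mutant pools lay above both control pools. The unprocessed signals were 2198 and 1811 in controls and 2956 and 2941 in LKB1-SCKO. The difference was 0.69 (SE 0.167, 95% interval 0.27 to 1.11), a 1.61-fold higher level (limma adjusted p = 0.109).

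Whether Tgfbr1 passed the threshold depended on the processing. It passed without background correction (difference 0.65, limma adjusted p = 0.0453) and with the authors' processed values (0.67, limma adjusted p = 0.0486), and it missed it in the other 12 alternatives that gave it a value (limma adjusted p from 0.0627 to 0.429). Its difference stayed between 0.54 and 0.84 in all 14. The lowest value came without control 2 and the highest without control 1.

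The other tested Tgfbr1 probe, ILMN_2980532, did not show this difference. It gave 5.82 and 5.73 in controls and 5.49 and 6.02 in LKB1-SCKO, with both control values between the mutant values. The difference was -0.018 (SE 0.212, 95% interval -0.55 to 0.51, limma adjusted p = 0.975), and without 1 pool it ran from -0.28 to 0.25. Its unprocessed signals of 169 to 202 were close to the background, whereas those of the brightest probe were far above it. Both probes are annotated to the same Tgfbr1 transcript record, and the difference between them was not tested.

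**Figure D3:**
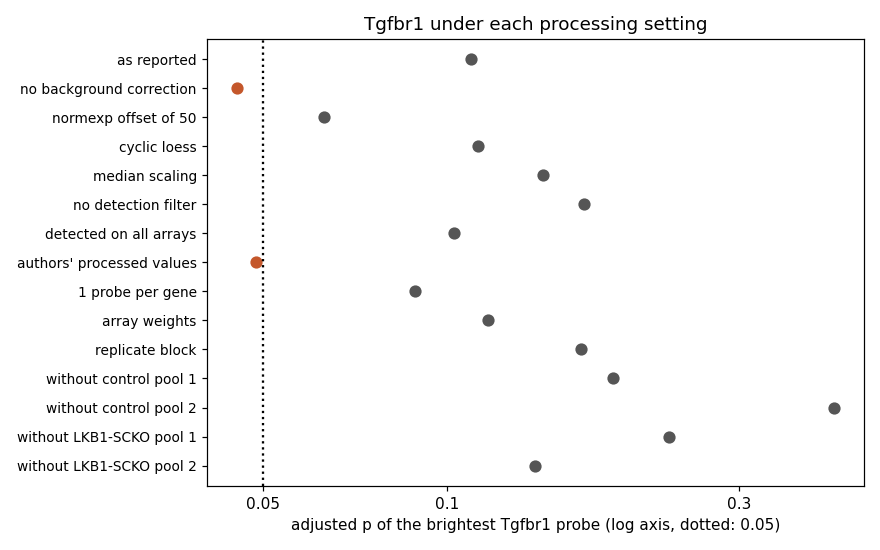
Adjusted p of the brightest Tgfbr1 probe (x axis, log scale, dotted line at 0.05) as reported and under 14 alternatives (y axis). The probe passes without background correction and with the authors' processed values, at 0.0453 and 0.0486, and lies furthest from the threshold without control pool 2, at 0.429.

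The 3 genes whose pattern over the 4 pools lay nearest to that of the brightest Tgfbr1 probe, out of 10857, were Ucp1, Anxa8 and Fam118b. Likeness was the root mean square distance between the 4 log2 values after centring each probe on its mean, at 0.0145, 0.0243 and 0.0251. Ucp1, the uncoupling protein of brown fat, gave 11.47 and 11.13 in controls and 12.05 and 11.92 in LKB1-SCKO, a difference of 0.69 (limma adjusted p = 0.119). As in Tgfbr1 and in the adipocyte marker sum, control 2 was the lowest pool and LKB1-SCKO 1 the highest. In that sum, however, control 1, at 6914, lay above LKB1-SCKO 2, at 6128, so the genotypes overlapped. The part of adipocytes in the Tgfbr1 values was not tested. Anxa8, an annexin gene, was not detected in either control pool. With 4 pools many patterns lie close to each other, and these names are a description only.

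Tgfbr2 encodes the type II receptor kinase that binds the ligand first. Its brightest probe, ILMN_2760979, gave 12.62 and 12.41 in controls and 12.35 and 12.50 in LKB1-SCKO. The genotypes overlapped, and the difference was -0.084 (SE 0.156, 95% interval -0.48 to 0.31, limma adjusted p = 0.804). It was -0.19 with median scaling or without control 2, and 0.023 without control 1. A dimmer probe, ILMN_1242086, gave 6.21 and 6.32 in controls and 5.52 and 5.93 in LKB1-SCKO, lower in both mutant pools. Its difference was -0.54 (SE 0.186, 95% interval -1.01 to -0.078, limma adjusted p = 0.196), on unprocessed signals of 170.0 to 212 that were close to the background. It was -0.18 without background correction, -0.35 with an offset of 50 and -0.34 without LKB1-SCKO 1. With the authors' processed values, shifted upward as for Tgfb2, it was -0.28. Before the shift those values were 56.5 and 61.9 in controls and 29.6 and 44.0 in LKB1-SCKO. The 2 probes thus gave different sizes for the same gene.

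Tgfbr3 encodes betaglycan, a co-receptor without kinase activity that presents ligands, TGF-beta2 above all, to TGFBR2. Its brightest probe, ILMN_2789239, gave 11.23 and 11.31 in controls and 11.05 and 10.98 in LKB1-SCKO. The mutant pools were both lower, and the spread within each genotype was small. The difference was -0.25 (SE 0.139, 95% interval -0.60 to 0.097, limma adjusted p = 0.369). The second probe, ILMN_2606601, gave 7.94 and 8.01 in controls and 7.81 and 7.16 in LKB1-SCKO, a difference of -0.50 (SE 0.238, limma adjusted p = 0.313). There the mutant pools were again both lower, but LKB1-SCKO 2 stood far below LKB1-SCKO 1, and without it the difference was -0.17. Without LKB1-SCKO 1 the difference was -0.82, and without background correction it was -0.30.

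**Figure D4:**
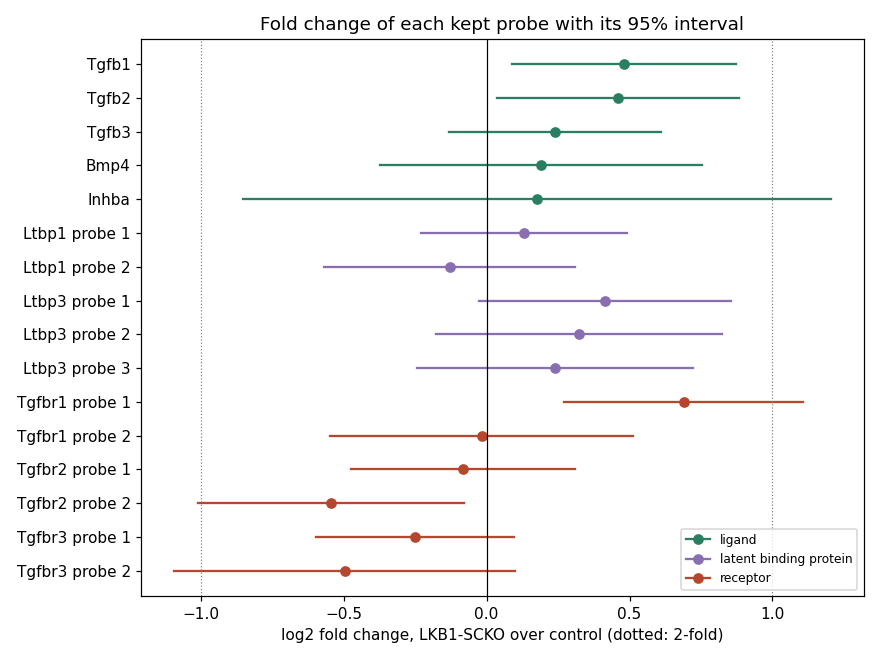
Log2 fold change (x axis, LKB1-SCKO over control) of each tested probe (y axis) as a point with its 95% interval, coloured by role, with dotted lines at 2-fold. The intervals of 12 of the 16 probes lie inside the dotted lines, and 4 exclude 0 (Tgfb1, Tgfb2, the brightest Tgfbr1 probe and the dimmer Tgfbr2 probe).

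The 95% interval, not adjusted for the number of probes, lay inside a 2-fold change in either direction for 12 of the 16 probes. The exceptions were Inhba, the brightest Tgfbr1 probe, the dimmer Tgfbr2 probe and the second Tgfbr3 probe, whose intervals reached past 2-fold on 1 side. The remaining 10 probes, of Ltbp1, Bmp4, Tgfbr1 and Tgfbr2, were detected in no pool. Their unprocessed signals lay between 116 and 161, with detection p-values from 0.0662 to 0.966, and they were not tested.

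The pathway around the 10 genes was described with 7 lists that together named 100 other genes, drawn up with earlier results of these data known. Of these, 90 were on the platform by name and 68 were measured, each by its brightest detected probe. Tnc and Id2 rose past the threshold and 0 fell in limma, which makes 2 of 68 (2.94%), against 2.00% of all genes higher and 0.903% lower. At an unadjusted p under 0.05 there were 21 of 68 (30.9%, 10 higher and 11 lower), against 20.8% of all genes. The median difference was 0.024, against 0.012 over all genes. The count of genes that fell depended on the processing: it was 6 without background correction and with the authors' processed values, where Acvr2b, Bmp7, Fst, Itgb5, Lox and Mmp9 passed. Tgif1 rose as well in those settings, with an offset of 50 and with 1 probe per gene. These names were chosen after their values were known.

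Of 12 measured genes that TGF-beta is known to induce, Tnc alone rose past the threshold, and 7 of the 12 had differences below 0. At an unadjusted p under 0.05 there were 3: Tnc and, named after their values were seen, Lox and Col3a1. Lox and Col3a1 were lower in both mutant pools, at -1.08 and -0.70 (limma adjusted p = 0.0520 and 0.210). Tnc encodes the matrix protein tenascin C. It gave 7.10 and 7.24 in controls and 9.59 and 9.20 in LKB1-SCKO, far outside the spread of either genotype (difference 2.22, SE 0.184, limma adjusted p = 0.00915). A second Tnc probe gave 2.28 (SE 0.158, limma adjusted p = 0.00610). A further dim one was not detected in either LKB1-SCKO pool, so its level there is known only as an upper bound. The fitted difference of this dim probe was -0.33 (95% interval -0.69 to 0.038, limma adjusted p = 0.285). The median of the list was -0.043.

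Of 6 measured genes that BMPs are known to induce, Id2 alone rose past the threshold. All 6 had differences above 0, with a median of 0.24, as had 5602 of all 10858 genes. Id2 encodes an inhibitor of basic helix-loop-helix transcription factors. It gave 8.09 and 8.25 in controls and 10.55 and 10.25 in LKB1-SCKO (difference 2.23, SE 0.170, limma adjusted p = 0.00692). A second probe gave 1.97 (SE 0.204, limma adjusted p = 0.0159). Its relatives, chosen after seeing their values, did not pass: Id1 and Id3 stood at 0.026 and 0.022 and Id4 at 0.49 (limma adjusted p = 0.958, 0.974 and 0.332).

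The other lists had 0 members past the threshold in limma. Beside their counts at an unadjusted p under 0.05, the share over all genes was 20.8%. Among 8 measured ligands outside the 10 genes, 4 had an unadjusted p under 0.05, and 4 of the 8 had differences above 0. The brightest ligands, Bmp7 and Gdf1, stood at -0.92 and -0.51 (limma adjusted p = 0.0741 and 0.136). The largest difference of the 8, named after its value was seen, was that of Gdf10, at 1.31 (SE 0.492, limma adjusted p = 0.226). Bmp7 encodes a BMP, and Gdf1 shares a transcript with the ceramide synthase gene Cers1, so its probe may not read Gdf1 alone. Among 11 receptors 2 had an unadjusted p under 0.05, and 7 of the 11 had differences below 0. The brightest, the BMP type II receptor gene Bmpr2, gave -0.12 (limma adjusted p = 0.707) and the activin type II receptor gene Acvr2b gave -1.13. Acvr2b stood at 11.06 and 10.73 in controls and 9.61 and 9.91 in LKB1-SCKO (SE 0.190, limma adjusted p = 0.0517), just short of the threshold.

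Among 13 genes of TGF-beta latency and activation, 4 had an unadjusted p under 0.05. Named after their values were seen, these were Mmp9, Itgb5, Itgb8 and Thbs1. They stood at -1.55, -0.72, 0.88 and 0.45 (limma adjusted p = 0.0808, 0.102, 0.106 and 0.232). The brightest members of the list, the proteases Mmp2 and Bmp1, gave -0.015 and -0.021 (limma adjusted p = 0.973 and 0.951). Of 5 SMAD genes none had an unadjusted p under 0.05. Smad3 and Smad2, the SMADs that TGFBR1 activates, stood at 0.074 and -0.035 (limma adjusted p = 0.839 and 0.915). Among 13 inhibitors 7 had an unadjusted p under 0.05. The proteoglycan genes Dcn and Bgn, whose products bind TGF-beta, stood at -0.34 and 0.41 (limma adjusted p = 0.287 and 0.224).

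The 7 inhibitor genes with an unadjusted p under 0.05, grouped here once those values were known, pointed in both directions. In both mutant pools Tgif1 was higher by 0.85, Skil by 0.82, Pmepa1 by 0.77 and Bgn by 0.41 (limma adjusted p = 0.0554, 0.122, 0.0860 and 0.224). Fst, which encodes the activin antagonist follistatin, differed by -0.78, Smurf1, a ubiquitin ligase gene, by -0.56 and the proteoglycan gene Fmod by -0.48 (limma adjusted p = 0.0745, 0.187 and 0.178). The other 6 genes of that list had differences from -0.34 to 0.26.

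**Figure D5:**
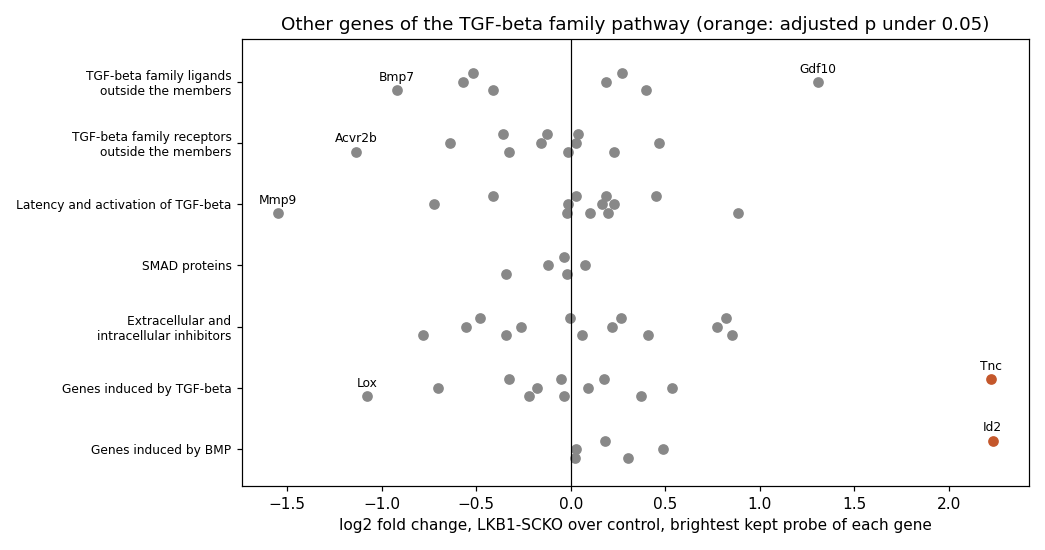
Log2 fold change (x axis, LKB1-SCKO over control) of the measured genes of each pathway list (y axis), 1 point a gene at its brightest detected probe, with small vertical shifts for legibility. Orange points passed the threshold, Tnc at 2.22 and Id2 at 2.23, and the other labels mark genes with large differences, chosen after their values were seen.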

How the data were processed

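Per the labels' protocols, RNA of each pool was extracted with Trizol, cleaned on columns with DNase I and labelled as biotinylated cRNA for Illumina arrays. The deposited table holds, per the file headers, non-normalized signal intensities on a linear scale with a detection p-value beside each. The authors' processed intensity values were deposited separately, with the same distribution on every array. The submitters' processing notes name GenomeStudio (2010). Slide, genome build and the other steps were not given in the sources used here, and coordinates were left out.

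Intensities were background-corrected with normexp in limma 3.58.1 (R 4.3.3), with negative controls inferred from detection p-values and an offset of 16, then quantile normalised and put on the log2 scale. A probe was tested when its detection p-value was under 0.05 in both pools of at least 1 genotype. lmFit and eBayes compared genotypes per probe, two-sided, with Benjamini-Hochberg adjustment over 19732 probes. An exact permutation test of 2 against 2 pools cannot go below 0.333 and was not used. Probe names came from the platform annotation: 34885 probes had 1 symbol, 18 several and 10378 none.

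The 10 members and the lists were chosen with earlier results of these data known. Named genes were all member probes, Stk11, list members past the threshold or else the 2 brightest, and the 3 nearest patterns; others are said to be named after their values were seen. Cell markers of Schwann cells, fibroblasts, perineurium, macrophages, endothelium, mural cells, muscle, adipocytes and red blood cells were summed. Alternatives covered background, offset, normalisation, filter, probe choice, array weights, the authors' values, a replicate block and leaving out each pool. The authors' values reached down to -53.1 on every array. For their log2 scale they were shifted upward so that the lowest value became 16, which shrinks differences of dim probes.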

Additional observations from a re-analysis of the deposited data

How the results depend on the processing

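Of the 218 values that alternatives gave for the 16 member probes, 208 kept their direction and their side of the threshold, 8 turned their direction and 2 passed the threshold, both for the brightest Tgfbr1 probe (1 member probe higher without background correction and 1 with the authors' processed values). All 8 turns came from leaving out a pool, at probes that were not called: -0.019 and -0.025 for Bmp4 (without control 2 or LKB1-SCKO 1; range to 0.40), -0.44 and -0.020 for Inhba (without control 2 or LKB1-SCKO 2; range to 0.79), 0.048 for the dimmer Ltbp1 probe (without control 2; range from -0.31), 0.026 and 0.25 for the dimmer Tgfbr1 probe (without control 1 or LKB1-SCKO 1; range from -0.28), and 0.023 for the brightest Tgfbr2 probe (without control 1; range from -0.19). No member probe was called when any pool was left out. The count of all called probes, 497, was 849 without background correction, 803 with an offset of 50, 890 with the authors' processed values, 257 without the detection filter and 252 with the replicate block. Without 1 pool it was 94 (control 2), 159 (control 1), 275 (LKB1-SCKO 1) or 534 (LKB1-SCKO 2). The share of higher probes among the called was 65.4%, and between 54.8% (median scaling) and 84.0% (without control 2) in the alternatives. Pathway genes past the threshold that fell numbered 0, but 6 without background correction and with the authors' values, 5 with an offset of 50, 2 with median scaling, detection on all arrays or 1 probe per gene, and 1 with cyclic loess. Without 1 pool they numbered 0 to 1. They came from Acvr2b, Bmp7, Fst, Itgb5, Lox and Mmp9, named after their values were seen. Tnc and Id2 passed in all 14 alternatives (limma adjusted p up to 0.0446 and 0.0370). Stk11 passed in 4 of 14. The deviations of same-numbered pools correlated at -0.169, which with 2 pools a genotype cannot show whether the numbers pair the pools. With crossed numbers as a block 380 probes and 0 member probes were called. The causes of these shifts were not tested. Signal over background limits the dim probes, and 2 pools a genotype limit all intervals.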

Other observations

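Among genes of the perineurium, the sheath around nerve fascicles, none of 6 measured markers passed the threshold in limma, and 2 had an unadjusted p under 0.05. The brightest, Itgb4 and Slc2a1, stood at -0.13 and -0.11 (limma adjusted p = 0.681 and 0.727). The 2 with the low unadjusted p, named after their values were seen, were Krt19 at 0.80 and Tjp1 at -0.71 (limma adjusted p = 0.191 and 0.133). The summed linear intensity was 23579 and 20715 in controls and 21039 and 20601 in LKB1-SCKO. Endothelial markers, 5 measured with Esam the brightest, had 0 past the threshold and 0 at an unadjusted p under 0.05, with sums of 4671 and 4040 in controls and 3858 and 4269 in LKB1-SCKO. Mural cell markers, 6 measured with Acta2 the brightest, had 0 past the threshold and 2 at an unadjusted p under 0.05, with sums of 12024 and 8476 in controls and 9702 and 12810 in LKB1-SCKO.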
